A study of Mus musculus with 6 samples.

Results

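The 9 genes described here hold epithelial cells to the basement membrane: Itga3, Itga6, Itgb1, Itgb4, Col17a1, Lama3, Lamb3, Dst and Bcam. Every open interval within 20 kb of each gene's mm10 span was taken, without regard to how it ranked, which gave 1529 of the 1085290 distinct intervals in the 6 peak lists. The data are ATAC-seq, in which a transposase cuts and tags accessible DNA, from mouse urothelium, the stratified lining of the bladder. There were 3 libraries from Stag2-KO mice, followed here as KO, and 3 from Stag2-WT mice, or WT. The product of Stag2 is part of cohesin, a ring-shaped complex that folds chromatin into loops. Both genotypes had been fed TMX in the diet and were taken at the time point labelled 1 week, and the WT libraries therefore share the TMX exposure with the KO libraries. Cells of the peeled urothelium that were GFP-positive and DAPI-negative were sorted, with 50000 cells per condition, and all libraries belong to batch 1. The labels name the libraries biological replicates and do not give the number or age of the animals behind each, nor the driver of the deletion or of GFP, so the tests measure the spread between these 6 libraries.

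Basal epithelial cells are anchored by hemidesmosomes. In these, the integrin made of the Itga6 and Itgb4 chains binds laminin-332 outside the cell, together with the transmembrane collagen of Col17a1, while linker proteins of the plakin family connect the complex to keratin filaments inside. Lama3 and Lamb3 encode chains of laminin-332. The integrin of Itga3 and Itgb1 also binds laminins but is coupled to actin, and Bcam is an adhesion protein of the immunoglobulin family that binds laminin alpha 5. Loss of the hemidesmosomal components causes blistering of skin in people, and Itga6 and Itgb4 are widely used to mark basal epithelial cells.

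Within a list, each distinct interval was ranked by the authors' fold over local background, rank 1 being the highest. Folds and summit coverages, printed for some regions below, depend on depth and are not comparable between lists. The best 100000 intervals of each library were merged into regions, and a library without an interval in a region was given the rank just beyond the last. The log2 rank gain is the mean of the KO libraries minus that of the WT libraries on the −log2 rank scale, so a gain of 1 is a rank better by a factor of 2 in KO. Around the 9 genes lay 180 regions, of which 137 had an interval in at least 3 libraries and were tested with all other such regions. Of the 137, 101 (73.7%) were present in all 6 lists, against 65.7% of all tested regions. The libraries hold a mixture of cells, so fewer cells with an open site and less opening per cell cannot be told apart.

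Facts about the libraries bear on what follows. The lists held 149153 to 260462 distinct intervals, the longest being that of KO replicate 1. Among 1000 sampled peaks per library, the lowest local background coverage implied by fold and p was 5.89 to 7.98. KO replicate 3 correlated with WT replicates 1 and 3 at r = 0.903 and 0.936 over 100565 regions, above its 0.862 and 0.830 with KO replicates 1 and 2. WT replicate 2 correlated with KO replicates 1, 2 and 3 at 0.823, 0.879 and 0.877 and with WT replicates 1 and 3 at 0.816 and 0.890. Results are therefore also given without these libraries. The share of the best 50000 intervals that lay at gene ends was 21.0%, 21.2% and 19.1% in KO and 19.0%, 18.3% and 18.2% in WT, with no overlap between the genotypes, although KO replicate 3 lay close to the WT libraries. Of 12 urothelial marker genes, 8 to 10 had a ranked interval at a gene end in KO libraries and 7 to 9 in WT libraries. The uroplakin genes Upk1a, Upk1b, Upk2 and Upk3a and the umbrella cell keratin Krt20 had one in all 6 libraries, the basal keratin Krt5 in KO replicates 1 and 2 only, and Trp63 and Gata3 in none. Ranked gene ends of marker genes of other cells numbered 2 to 5 in KO and 4 to 6 in WT of 7 for fibroblasts, 2 in each KO library and 2 to 3 in WT of 5 for smooth muscle, 1 to 4 in KO and 0 to 2 in WT of 5 for endothelium, and 3 to 4 in KO and 2 to 4 in WT of 6 for leukocytes. Among these, Ptprc, Emcn, Tagln, Cnn1 and Lum had none in any library. Dcn had one in WT replicate 1 only, at rank 45661, and Myh11 in WT replicates 1 and 3 only, at 13638 and 12425. Pecam1 and Cdh5 had one in KO replicate 1 only, at 95006 and 79071. In contrast, Pdgfra, Acta2, Spi1 and Csf1r had one in all 6, Col1a1, Col3a1, Pdgfrb, Des and Cd3e in 5, Kdr in 4, and Col1a2, Tek and Itgam in 3. The part of these differences in the values below was not tested. Gains were also adjusted for the gene-end share as a covariate. That share comes from the same ranks and separates the genotypes, so over 6 libraries its part and that of the genotype cannot be told apart. The adjusted gains are given as a description.

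The DNA at the annotated starts differed widely between the members. RefSeq promoters on GRCm38.p6, whose coordinates are those of mm10, run from 250 bases before to 50 bases after a start. None was listed for Itga6, Itgb4 and Lama3, whose end was the best ranked of the set. Of the listed promoters, 6 are shown because the intervals reported below lie at them. They include the best and the worst ranked of the listed starts that had an interval. They are read 5′ to 3′ on the gene's strand, with capitals on matches to 6 motifs searched on both strands: GGGCGG (the GC box), TGANTCA (AP-1), TTTGAA (the CHR element), GGAATG (TEAD), TTTCCCGC (E2F) and CCCTCCCC. No match overlapped another.
Lamb3 start, chr1:193301744-193302043, plus strand: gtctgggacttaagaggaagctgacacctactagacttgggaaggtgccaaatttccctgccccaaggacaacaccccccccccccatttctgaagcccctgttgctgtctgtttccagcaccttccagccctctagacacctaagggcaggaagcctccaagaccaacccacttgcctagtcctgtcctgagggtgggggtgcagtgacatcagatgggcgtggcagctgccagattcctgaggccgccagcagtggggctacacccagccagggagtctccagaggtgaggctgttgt
Itgb1 start, chr8:128685404-128685703, plus strand: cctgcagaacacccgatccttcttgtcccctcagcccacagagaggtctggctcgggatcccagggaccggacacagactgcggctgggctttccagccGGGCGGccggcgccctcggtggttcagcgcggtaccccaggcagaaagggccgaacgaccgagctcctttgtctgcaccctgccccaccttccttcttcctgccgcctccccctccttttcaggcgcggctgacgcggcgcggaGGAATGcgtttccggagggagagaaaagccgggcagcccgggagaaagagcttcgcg
Bcam start, chr7:19770483-19770782, minus strand: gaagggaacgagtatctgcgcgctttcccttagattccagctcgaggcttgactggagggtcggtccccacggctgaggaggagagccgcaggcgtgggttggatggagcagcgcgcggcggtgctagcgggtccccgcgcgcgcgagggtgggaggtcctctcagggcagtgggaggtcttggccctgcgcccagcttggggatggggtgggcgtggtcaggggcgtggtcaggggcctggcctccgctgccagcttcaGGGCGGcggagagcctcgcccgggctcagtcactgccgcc
Col17a1 start, chr19:47691993-47692292, minus strand: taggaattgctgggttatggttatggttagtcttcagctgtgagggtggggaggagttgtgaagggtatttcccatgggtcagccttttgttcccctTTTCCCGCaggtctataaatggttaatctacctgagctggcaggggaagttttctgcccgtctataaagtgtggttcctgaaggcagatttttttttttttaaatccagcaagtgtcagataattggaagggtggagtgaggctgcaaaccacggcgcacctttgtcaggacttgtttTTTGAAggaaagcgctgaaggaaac
Dst first inner start, chr1:34011345-34011644, plus strand: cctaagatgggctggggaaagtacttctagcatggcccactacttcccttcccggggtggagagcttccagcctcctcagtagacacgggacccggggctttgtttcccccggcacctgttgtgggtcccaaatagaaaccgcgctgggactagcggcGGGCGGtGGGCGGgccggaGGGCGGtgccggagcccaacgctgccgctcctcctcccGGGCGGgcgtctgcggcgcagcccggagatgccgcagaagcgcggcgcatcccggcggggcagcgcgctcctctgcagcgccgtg
Dst second inner start, chr1:34160010-34160309, plus strand: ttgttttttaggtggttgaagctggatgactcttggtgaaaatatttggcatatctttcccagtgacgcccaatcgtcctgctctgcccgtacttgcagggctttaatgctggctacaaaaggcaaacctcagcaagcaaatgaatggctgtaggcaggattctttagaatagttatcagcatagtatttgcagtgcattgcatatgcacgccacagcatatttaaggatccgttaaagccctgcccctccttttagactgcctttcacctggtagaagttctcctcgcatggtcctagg

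The first inner start of Dst held 31 CpG dinucleotides, 70.3% G and C and 4 GC boxes, and the starts of Itgb1 and Bcam held 27 CpG and 1 GC box each. In contrast, the Lamb3 start shown had 2 CpG, the Col17a1 start 5 and the second inner start of Dst 6, and none of these 3 held a GC box. The median promoter of the table had 7 CpG and 52.7% G and C. The Itga3 promoter at chr11:95076665-95076964, not shown, had 24 CpG and 3 GC boxes. Among all 32851 promoters of this length, 35.7% held GGGCGG, 7.81% TGANTCA, 17.9% TTTGAA, 14.7% GGAATG, 1.07% TTTCCCGC and 10.8% CCCTCCCC. The Itgb1 promoter carried 1 GGAATG, and that of Col17a1 carried 1 TTTGAA and 1 TTTCCCGC. A match is only a run of letters and does not show a bound factor.

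The first comparison asked whether the ends of the 9 genes were ranked differently in KO and WT. Annotated spans were used, and the better ranked end of a gene, by its mean over the 6 libraries, was taken, allowing 500 bp on either side. An end was ranked in at least 3 libraries for 8 genes, with Lamb3 described at its inner start below. The gain was above 0 for 7 of these 8 ends, with a median of 0.31, while over all 13306 tested gene ends it was above 0 for 70.3%, with a median of 0.23. None of the 8 passed (limma, moderated test with Benjamini-Hochberg adjustment over all gene ends at 0.05), where 0.0827% of all ends passed, 0.0225% as higher and 0.0601% as lower in KO. At an unadjusted p below 0.05, 3 of the 8 were higher and 0 lower, against 11.2% and 1.96% of all gene ends. Without KO replicate 3, 7 member ends were tested, 4 of them higher at that p, with a median gain of 0.59, against 2894 of all 13156 ends, with a median of 0.28. Without WT replicate 2 it was 3 of 7, with a median of 0.57, against 1707 of all 13074, with a median of 0.15. Adjusted for the gene-end share, the medians were 0.20 for the 8 ends and 0.036 for all ends, and 0 of the 8 had an unadjusted p below 0.05. The genotypes did not overlap at 2 of the 8 ends, both better in KO, against 16.2% of all ends better in KO and 1.73% better in WT.

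**Figure D1:**
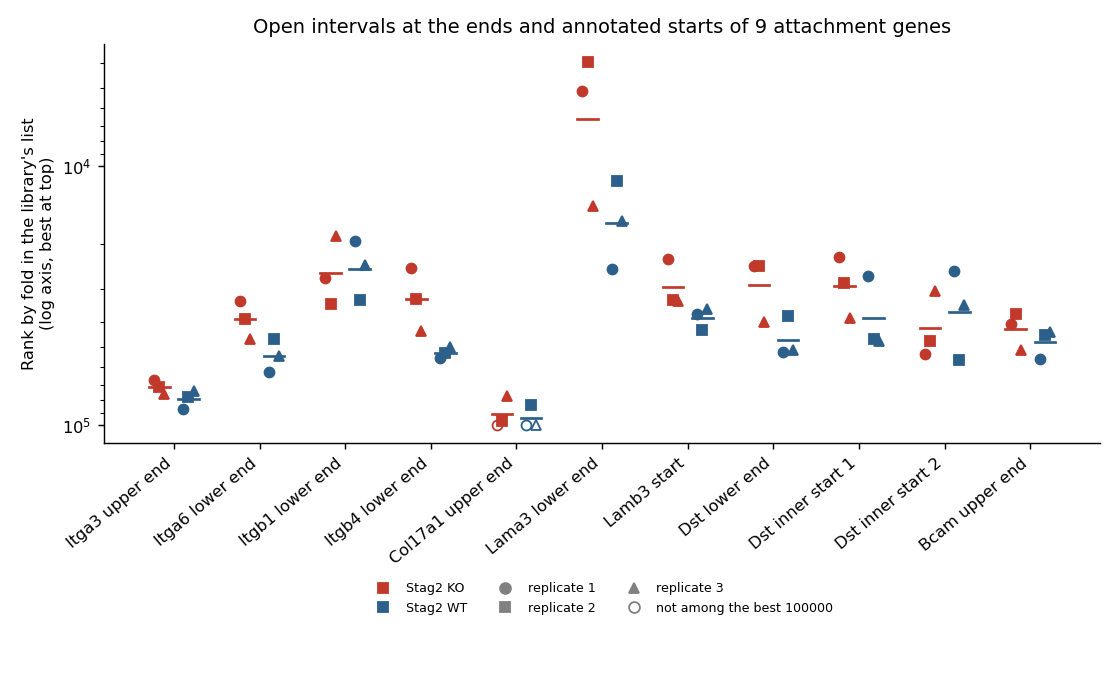
Rank by fold of the interval at each gene end or annotated inner start (vertical log axis, best at top) in the KO libraries (red) and the WT libraries (blue). Each symbol is 1 library, its shape is the replicate number, open symbols are libraries without an interval among the best 100000, and lines are geometric means. The Lama3 end was the best ranked and that of Col17a1 the worst, and the KO and WT symbols did not overlap at the Itga6 and Itgb4 ends and the Lamb3 start. At the Lamb3 start the interval shown for KO replicate 3 had its summit at another place than those of the other libraries.

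Laminin-332 is the ligand of the hemidesmosome, and its alpha chain gene Lama3 had the best ranked end of the set. The span lies on chromosome 18 from 12333417 to 12583013. Its lower end held rank 5134, 3983 and 14242 in KO replicates 1, 2 and 3, against 25061, 11410 and 16268 in the WT libraries. KO replicates 1 and 2 stood above all WT libraries, whereas KO replicate 3 came behind WT replicate 2, so the genotypes overlapped. The authors' fold there was 25.5, 34.5 and 17.8 in KO and 11.8, 26.9 and 17.4 in WT, and the summit lay 508 to 525 bp inside the span in every library. The gain was 1.33 ± 0.55 (SE, n = 3 per group, limma adjusted p = 0.348). Without KO replicate 3 the gain was 1.88, and without WT replicate 2 it was 1.61, neither called. Adjusted for the gene-end share it was 0.18 ± 0.88. Over all gene ends, 21.0% had a better mean rank.

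Within the body of Lama3, 6 of the 17 tested internal regions had a gain above 0 and 11 below, beside 51.5% above 0 among all tested regions. None of them was called. The best ranked was internal, at chr18:12503805-12504381, with rank 9006, 16218 and 8705 in KO and 6079, 14799 and 6425 in WT. The groups overlapped there, with a gain of −0.38 ± 0.51. The smallest p among regions better in WT belonged to chr18:12474131-12474698, which held 39573, 48215 and 17999 in KO and 15904, 18348 and 16237 in WT. KO replicates 1 and 2 were low and KO replicate 3 lay among the WT libraries. Its gain was −0.95 ± 0.42 (limma adjusted p = 0.328), and the sign turned to 0.11 after adjusting for the gene-end share.

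Lamb3 encodes the beta chain of the same laminin (chromosome 1, 193294353 to 193343878). Neither end of its full span had an interval among the best 100000 of any library, but its annotated starts, at 193301994 and 193302243, both lay inside the region chr1:193301212-193302322. That region covers most of the Lamb3 promoter printed above and held rank 22816, 33073 and 33189 in KO, against 37370, 43066 and 35556 in WT. By its best interval, every KO library ranked it above every WT library, but that interval was not the same in all libraries. Its summit lay at −42 bp from the first start in KO replicate 3 and at −589 to −572 bp in the other libraries. At the second start alone the ranks were 29966, 39687 and 33189 in KO and 37370, 52665 and 45112 in WT, and the genotypes overlapped. The gain of 0.40 ± 0.31 did not pass the test over all regions (limma adjusted p = 0.538), and it was 0.49 without KO replicate 3 and 0.32 without WT replicate 2. Where an interval had to cover 50% of the region, narrower ones were dropped and the library took the rank just beyond the last. The region spans 1111 bp, and KO replicates 1 and 3, with intervals of 498 and 500 bp at the second start, took that rank. The gain of −0.72 in that setting therefore reflects dropped intervals. Fixed windows around summits gave 0.86 ± 0.35, and adjusting for the gene-end share gave 0.19 ± 0.52. None of these gains was called. Ranked by p in place of fold, the better of the intervals there held 5658, 5657 and 9293 in KO and 16948, 8440 and 11633 in WT, which overlapped between the genotypes, with a gain of 0.83 ± 0.35.

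Upstream of Lamb3 lay the region with the smallest p of the set, below the lower end of the span, at chr1:193289832-193290331. It held rank 53550, 50169 and 45022 in KO, at a coverage of 85, 112 and 114 at the summit, and no interval in any of the WT lists, which hold 168561, 174275 and 165214 intervals. The fold was 7.71, 11.0 and 9.15 in the KO libraries. The gain, with the WT libraries set just beyond the last rank, was 1.02 ± 0.19 (n = 3 per group, limma unadjusted p = 0.000236) and was not called (limma adjusted p = 0.171). All WT libraries hold the same assigned rank and so have no spread. The SE and p reflect only the KO libraries and the moderated variance, as at every region ranked in 1 genotype only. With the covariate the gain was 1.18 ± 0.30. Leaving out a WT library could not change this gain, and leaving out a KO library left the region in fewer than 3 lists and untested. Of all tested regions, 0.112% had an interval in the 3 KO rank lists and in no WT list at any rank, and 0.171% the reverse.

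The receptor of laminin-332 in the hemidesmosome is the pair of Itga6 and Itgb4. Itgb4 (chromosome 11, 115974725 to 116008412) encodes the chain with the long cytoplasmic tail that recruits the inner plaque. Its lower end held rank 24714, 32563 and 43578 in KO and 55329, 52644 and 50153 in WT. All 3 KO libraries were better, with KO replicate 3 nearest to WT. The fold was 14.2, 16.3 and 9.40 in KO and 6.74, 11.5 and 8.76 in WT. The gain was 0.69 ± 0.26 (SE, n = 3 per group, limma adjusted p = 0.342), 0.89 without KO replicate 3, 0.69 without WT replicate 2 and 0.23 ± 0.39 after adjusting for the gene-end share. The intervals were 629 to 812 bp wide with a summit coverage of 706, 1088 and 372 in KO and 224, 664 and 350 in WT. Coverage depends on depth and is not comparable between libraries. By p in place of fold, the ranks were 7635, 6421 and 16954 in KO and 28243, 15113 and 20072 in WT, so the genotypes overlapped, and the gain was 1.12 ± 0.41.

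Itga6, the alpha chain of that receptor, had a gain in the same direction. On chromosome 2 its span runs from 71786886 to 71858427, and the lower end held rank 33105, 38908 and 46554 in KO and 62240, 46588 and 54190 in WT. All KO libraries were better, though KO replicate 3 and WT replicate 2 held nearly the same rank. The gain was 0.46 ± 0.24 (limma adjusted p = 0.407), 0.59 without KO replicate 3, 0.57 without WT replicate 2 and 0.26 ± 0.37 after adjusting for the gene-end share. By p the ranks were 21908, 17470 and 33659 in KO and 52985, 26396 and 39344 in WT, which overlapped, with a gain of 0.70 ± 0.35. An internal region, chr2:71813855-71814430, held 21939, 26415 and 29548 in KO and 41266, 37597 and 38846 in WT, again with no overlap, and a gain of 0.61 ± 0.30 (limma adjusted p = 0.369). In the other direction chr2:71852227-71852535 had 19382, 28968 and 42406 in KO and 26810, 10802 and 23381 in WT, with a gain of −0.60 ± 0.45. The best mean rank in the window was at an end of the neighbour Pdk1.

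Around Itgb4 a flank region with no annotated gene, chr11:116017955-116018549, held 21984, 22274 and 31173 in KO and 48171, 40485 and 44750 in WT. The genotypes did not overlap, and the gain was 0.84 ± 0.31 (limma adjusted p = 0.288), 1.00 without KO replicate 3 and 0.90 without WT replicate 2. It was 0.48 ± 0.50 after adjusting for the gene-end share and 0.33 ± 0.25 when ranked by p. Within the Itgb4 span only 2 regions were tested, both at weak ranks. One of them, chr11:115999624-116000007, had a gain of −0.26 ± 0.18 and a worst whole-list rank of 216720 in KO replicate 1.

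Itga3 and Itgb1 form the actin-linked laminin receptor, and the gains at their ends were no larger than their standard errors. Itgb1 (chromosome 8, 128685654 to 128733579), the beta chain shared by many integrins, held rank 27067, 34114 and 18739 in KO and 19488, 32902 and 24118 in WT at its start. The libraries of both genotypes were interleaved, and the gain was −0.05 ± 0.34 (limma adjusted p = 0.959). Its sign was not stable: it was 0.10 when intervals were ranked by p and 0.40 with the covariate. The best ranked region of Itgb1 was internal, chr8:128704439-128704755, at 7452, 11678 and 6670 in KO and 6768, 9125 and 13221 in WT, with a gain of 0.16 ± 0.47. Itgb1 was the second best ranked end of the set after Lama3, and 51.1% of all gene ends were ranked better.

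Itga3 (chromosome 11, 95044475 to 95076844) had a weak upper end by fold, at rank 66895, 71382 and 75782 in KO and 86664, 77891 and 73842 in WT. WT replicate 3 lay between KO replicates 2 and 3. The gain was 0.15 ± 0.19 (limma adjusted p = 0.743). Its interval was 1133 to 1184 bp wide with 3 to 4 summits. By p in place of fold, the end ranked better, at 30582, 26190 and 37180 in KO and 48163, 27811 and 32550 in WT. These also overlapped. The second annotated start of Itga3, at 95069198, had no interval in any list. Beyond the upper end, chr11:95085832-95086569 held 42948, 55516 and 59279 in KO and 82877, 70617 and 69616 in WT, without overlap. The gain was 0.51 ± 0.23 (limma adjusted p = 0.342), and 0.054 ± 0.24 with a required overlap of 50%. That setting dropped the best intervals of KO replicates 1 and 2 and WT replicate 1. These were 309, 326 and 291 bp wide in a region of 738 bp, so the lower gain reflects dropped intervals at least in part.

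Bcam, the receptor for laminin alpha 5, has a short span (chromosome 7, 19756138 to 19770532). Its upper end held rank 40947, 37435 and 51154 in KO and 55714, 44984 and 43946 in WT. KO replicates 1 and 2 were best and WT replicate 1 was worst. The gain was 0.16 ± 0.24 (limma adjusted p = 0.787), and −0.067 after adjusting for the gene-end share. The best ranked region near Bcam was upstream, chr7:19778579-19778993, at 10372, 6246 and 5712 in KO and 25892, 4667 and 9987 in WT. It was best of all in WT replicate 2, and its gain of 0.57 ± 0.62 turned to −0.073 without WT replicate 1. Below the span, chr7:19753604-19754001 held 50175, 57722 and 36663 in KO and 77873, 76587 and 55560 in WT, with a gain of 0.55 ± 0.27 (limma adjusted p = 0.370). Adjusting for the gene-end share moved these gains to 1.504 ± 1.04 and 1.12 ± 0.40, and ranking by p moved the second to 1.03 ± 0.34, none of them called.

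Col17a1, the transmembrane collagen of the hemidesmosome (chromosome 19, 47646341 to 47692042), had the weakest end, with 99.4% of all gene ends ranked better. In the whole lists the interval at its start held rank 119865, 96166 and 77199 in KO and 134987, 83915 and 101733 in WT. Only KO replicates 2 and 3 and WT replicate 2 had it among the best 100000. The gain was 0.06 ± 0.19 (limma adjusted p = 0.913). The fold was 3.45 to 5.30 in KO and 2.63 to 6.76 in WT.

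Upstream of the Col17a1 start, 4 regions were tested, of which those at 47693917 and 47699721 were ranked better in WT and that at 47705434 better in KO, while that at 47710251 had a gain of −0.0099 ± 0.40. The one nearest to the start, chr19:47693917-47694336, had no ranked interval in KO replicates 1 and 2, held 46217 in KO replicate 3, and held 24217, 63272 and 24560 in WT. It was chosen after its values were seen, and its gain was −1.21 ± 0.44 (limma adjusted p = 0.285). The next tested region, chr19:47699721-47700136, was among the best ranked of the set, at 10742, 9333 and 4460 in KO and 1644, 2924 and 2986 in WT. All WT libraries stood above all KO libraries, and the gain was −1.65 ± 0.58 (n = 3 per group, unadjusted p = 0.0167, limma adjusted p = 0.281). Without KO replicate 3 it was −2.04, and without WT replicate 2 it was −1.79. With the covariate it was −0.95 ± 0.99. The fold was 20.8, 28.7 and 24.3 in KO and 24.3, 35.4 and 26.0 in WT, and these overlapped. A fold is comparable only within its own list.

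Weak intervals ranked in KO libraries only, too few to be tested, lay nearby, at 47693457 with rank 74740 in KO replicate 2 and at 47695172 with 84020 and 86739 in KO replicates 1 and 2. Farther upstream, chr19:47705434-47705750 held 55953, 48947 and 73279 in KO and only weak intervals in the whole WT lists, at 116272, 114438 and 155764. The genotypes did not overlap, and the gain over the rank lists was 0.77 ± 0.19 (limma adjusted p = 0.255), or 0.35 ± 0.28 with the covariate. The fold there, each on the scale of its own list, was 7.39, 11.3 and 5.60 in KO and 3.11, 4.43 and 2.27 in WT. Below the gene, inside the neighbour Slk, the region at chr19:47633117-47633393 had a gain of 0.90 ± 0.26 (limma adjusted p = 0.265). It was singled out after its values were seen.

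**Figure D2:**
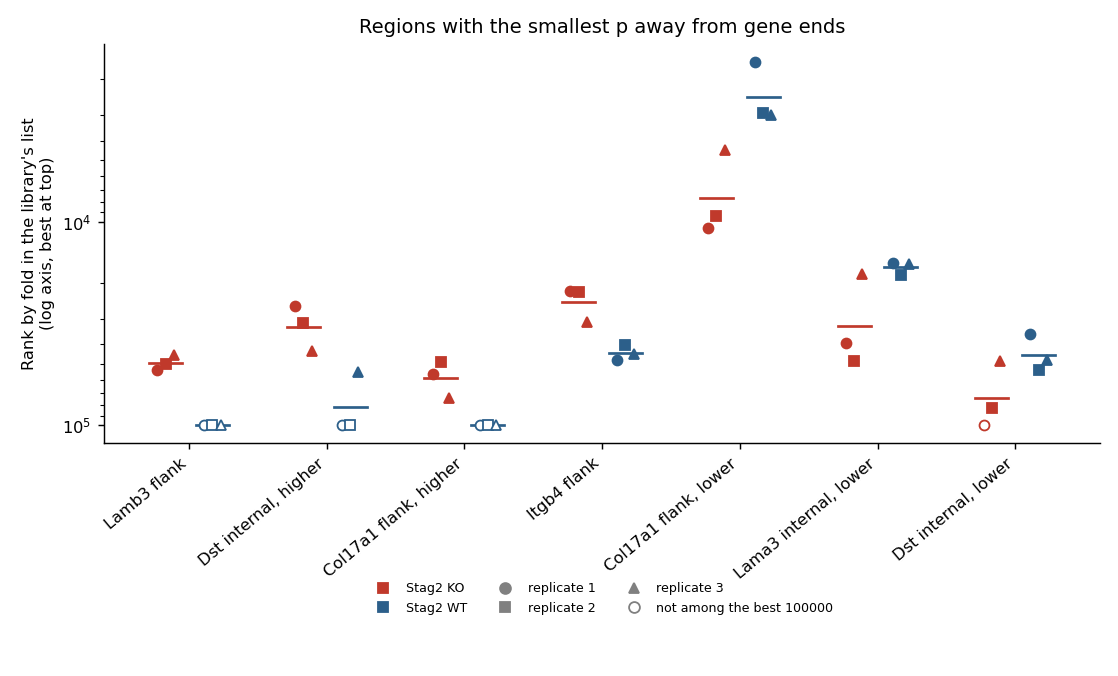
Rank by fold (vertical log axis, best at top) of 7 regions away from gene ends, in KO (red) and WT (blue) libraries. Each had the smallest p of its gene in 1 direction, and some regions with a smaller p than several of these are not shown. Each symbol is 1 library, open symbols are libraries without an interval among the best 100000, and lines are geometric means. The Lamb3 flank and that of Col17a1 at 47705434 were ranked in the 3 KO libraries and in no WT library, while the Col17a1 flank at 47699721 was ranked better in every WT library.

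Dst encodes dystonin, whose epithelial isoform is a plakin that links hemidesmosomes to keratin, and whose other isoforms serve nerve and muscle. With a span from 33907888 to 34308662 on chromosome 1 it held 46 of the 137 tested regions, 22 with a gain above 0 and 24 below. Its lower end, which overlaps an end of the neighbour Bend6, held rank 24306, 24453 and 40169 in KO and 52452, 38019 and 51416 in WT. KO replicates 1 and 2 were best, and KO replicate 3 came behind WT replicate 2. The gain was 0.70 ± 0.28 (limma adjusted p = 0.345), 0.94 without KO replicate 3, 0.85 without WT replicate 2 and 0.16 ± 0.42 with the covariate.

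The 2 inner starts of Dst, printed above, differed in sequence and did not show the same order of libraries. At the CpG-rich first one, chr1:34010981-34012014 held 22529, 28401 and 38824 in KO and 26555, 46539 and 47364 in WT, an overlap with a gain of 0.41 ± 0.36. At the CpG-poor second one, chr1:34159870-34160567 held 53200, 47258 and 30327 in KO and 25576, 56116 and 34369 in WT, also overlapping, with a gain of −0.21 ± 0.37. Both signs turned after adjusting for the gene-end share, to −0.34 and 0.16. The difference between the starts was not tested.

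Inside Dst, chr1:34127714-34128120 held 26063, 31615 and 43378 in KO. In the WT lists its intervals were at 116094, 144557 and 55171 over their whole length, so only WT replicate 3 was in the rank list. The coverage at the summit, which depends on depth, was 412, 536 and 293 in KO and 82, 91 and 252 in WT. The gain was 1.32 ± 0.33 (limma adjusted p = 0.255), with the covariate 0.99 ± 0.55, and with a list of 50000 it was 0.60 ± 0.21. It was the only region of the set called in any of the alternatives: without KO replicate 3 its gain was 1.51 with a limma adjusted p of 0.0480, in a fit in which 837 of 94480 regions passed as higher and 1579 as lower. Over all alternatives its adjusted p ranged up to 1.00, and without WT replicate 2 its gain was 1.17.

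Other regions of Dst lay on both sides. A region at chr1:33944911-33945412, chosen after its values were seen, held 16840, 11192 and 26505 in KO and 64139, 28378 and 40714 in WT, without overlap, at a gain of 1.30 ± 0.43. In the other direction, chr1:33964628-33965140 held 101093, 82705 and 48664 in KO and 35841, 53492 and 47880 in WT over the whole lists, with a gain of −0.71 ± 0.31 over the rank lists (limma adjusted p = 0.331). A region ranked in the 3 KO libraries only, chr1:34140833-34141076, was weak in both genotypes, at 82349, 90074 and 93349 in KO and 105604, 116642 and 142106 in WT, with a gain of 0.18 ± 0.12. The best ranked interval in the window lay in the flank, inside Bend6, at chr1:33900136-33900535, with rank 4555, 941 and 1029 in KO and 2280, 322 and 1562 in WT.

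Counted over all 9 genes, none of the 137 regions passed (limma, adjusted over 100565 regions), where 0.0209% of all regions passed, 0.0119% as higher and 0.00895% as lower in KO. At an unadjusted p below 0.05, 8 regions were higher and 5 lower, or 5.84% and 3.65%, against 6.97% and 7.84% of all regions. Without KO replicate 3 these were 9 and 9 of 129 regions, against 11941 and 12792 of all 94480. Without WT replicate 2 they were 10 and 7 of 134, against 8430 and 10091 of all 94818. The genotypes did not overlap at 13 regions better in KO (9.49%) and 2 better in WT (1.46%), against 11.4% and 8.17% of all regions. In the rank lists 3 regions were present in every KO library and no WT library, or 2.19%, against 1.38% of all regions, and 0 the reverse, against 1.23%. The gain was above 0 in 73 regions and below in 64, with a median of 0.04, and over all regions the median was 0.02.

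By position, the 88 internal regions were split into 44 above and 44 below 0, with a median gain of −0.01, and the 32 flank regions into 16 and 16, with a median of 0.01. The 8 gene-end regions had a median of 0.31 and the 3 at inner annotated starts one of 0.40. The lean towards KO at the member gene ends had the sign of that over all gene ends, whose share among the best intervals was higher in the KO libraries.

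**Figure D3:**
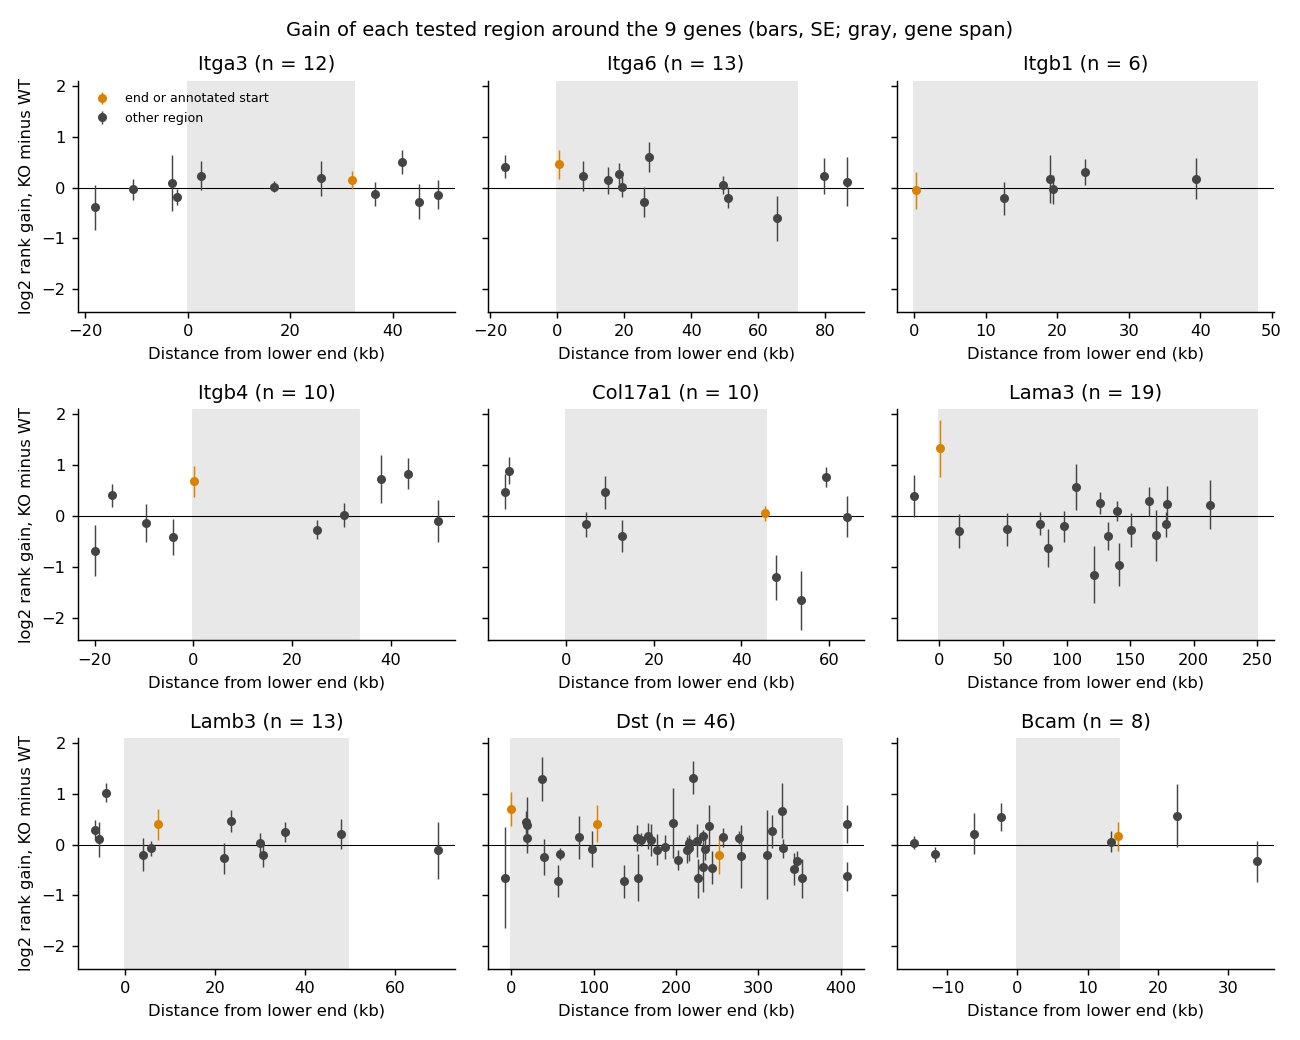
Log2 rank gain, KO minus WT (vertical axis), of every tested region around the 9 genes by distance in kb from the lower end of the gene's span, which is shaded gray. Orange points are gene ends or annotated starts, black points are other regions, and bars are standard errors. Most bars cross or approach 0, with the Lama3 end and internal Dst region high and the Col17a1 flank at 47699721 low.

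**Figure D4:**
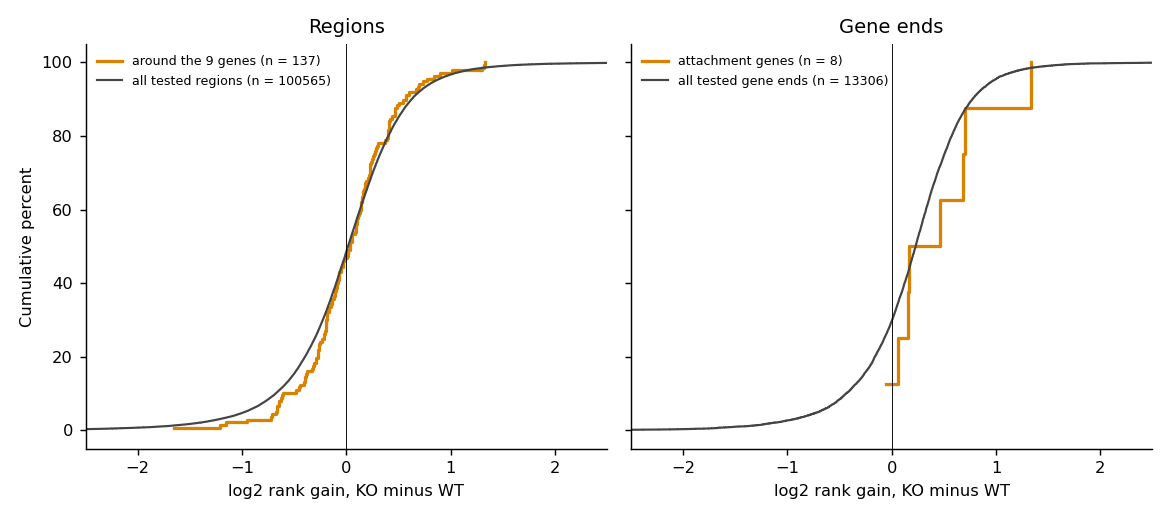
Cumulative percent of features (vertical axis) by log2 rank gain, KO minus WT, for the regions around the 9 genes (left, 137, orange) and their gene ends (right, 8, orange), beside all tested regions (100565) and gene ends (13306, gray). The curve of the member regions crosses 50% near 0 as that of all regions does, and both gene-end curves lie mainly to the right of 0.

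The number of ranked intervals per library in the 9 windows was 148, 145 and 146 in KO and 130, 137 and 143 in WT, a mean of 146 ± 1.53 in KO and 137 ± 6.51 in WT (SD, n = 3 each). These counts did not overlap. Counts around other genes were not taken, so the gap is not shown to be particular to these 9. In the best 50000 intervals the 9 windows held 75, 75 and 83 in KO and 70, 70 and 76 in WT. In the whole lists they held 358, 223 and 251 in KO and 225, 241 and 243 in WT. The genotypes overlapped at both of those lengths. Dst contributed the most, with 48, 50 and 48 in KO and 41, 44 and 45 in WT. Lamb3 had 16, 13 and 13 in KO and 11, 12 and 12 in WT. Bcam went the other way, with 8, 7 and 8 in KO and 8, 9 and 9 in WT.

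Of 34 other genes of hemidesmosomes, laminins, basement membrane and integrin adhesion, 32 had a tested gene end and none was called (limma), where 0.0827% of all gene ends were. The gain was above 0 for 29 of the 32, with a median of 0.32, beside the 70.3% and 0.23 of all gene ends, and 7 were higher and 0 lower at an unadjusted p below 0.05, against 11.2% and 1.96% of all gene ends. All 9 basement membrane genes, among them the collagen IV genes Col4a1 and Col4a2 and the nidogens, had a gain above 0, from 0.05 to 0.59. The 8 genes of integrin linkers such as talin and kindlin had a median of 0.38, the 7 other receptors 0.37, and the 6 other laminin chains 0.21. The hemidesmosomal plaque gene Plec and the tetraspanin gene Cd151, which encodes a partner of laminin-binding integrins, had a median of −0.069. Dag1, the dystroglycan gene and a laminin receptor, had the smallest p, with rank 13757, 22213 and 27137 in KO and 36133, 39557 and 42492 in WT. Its libraries did not overlap, and its gain was 0.96 ± 0.31 (limma adjusted p = 0.328). The smallest p in the other direction was that of Lamb1, with 77192, 69232 and 90773 in KO and 72700, 73423 and 63946 in WT, at a gain of −0.17 ± 0.20. Plec, the plectin gene and the other hemidesmosomal plakin, had a gain of −0.17 ± 0.24, and Cd151 one of 0.028 ± 0.19. Col4a1 and Col4a2 share an end with the same values, and count as 2 of the 7.

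The gene ends whose ranks over the 6 libraries were most like the mean of the 8 member ends were those of Gas2l3 (r = 0.998), Anxa3 (0.998) and Dnaja2 (0.997). This likeness is a description over 6 libraries that share their depth and gene-end share, and 1243 of 13298 gene ends had r above 0.9. Gas2l3 held rank 4852, 6085 and 12294 in KO and 25707, 15415 and 19373 in WT, without overlap between the genotypes.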

How the data were processed

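Each library had its own narrowPeak list, in which the authors deposited for every peak a fold over local background (a ratio), a −log10 p, a −log10 q, a display score that was not used here, and a summit. The submitters' processing notes list mm10 and DiffBind. An aligner and a peak caller are not given in the sources. Where summits shared an interval, it was kept once with their highest fold, and intervals were ranked by fold (ties by −log10 p, then position). The fold depends on depth, so it was ranked only within a list, and folds printed for both genotypes are descriptions. The best 100000 intervals per library were merged where they shared at least 1 bp.

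Features ranked in 3 or more libraries were tested on −log2 rank by limma 3.58.1 (R 4.3.3) (moderated variances with a trend, adjustment over all features, threshold 0.05), without a block on the replicate number. The deviations of same-numbered libraries correlated at r = 0.105, 0.557 and 0.401 over regions, and the block was run as an alternative. Differently numbered libraries ranged from −0.513 to 0.318, the latter for KO replicate 3 with WT replicate 1. Over gene ends that pair reached 0.521, above the same-numbered 0.140 and 0.448, so a pairing by number was not borne out throughout. Python 3.11.15, pandas 2.3.3, NumPy 2.4.6, SciPy 1.17.1 and matplotlib 3.10.9 served for the rest. The fit was run on simulated ranks, made from a WT list with independent noise per library and known changes in KO. That setting lacks the uneven correlations between libraries given above, so it does not show how the fit behaves on these data. Background coverage was solved from fold and p, and in each library 100% of 1000 sampled peaks fitted a whole coverage to within 0.002 in −log10 p.

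Gene spans and promoters are from RefSeq tables of GRCm38.p6. The span table gives neither strand nor exons, so 1 of the ends of a gene is its 3′ end, and intervals are given as gene end, inner annotated start, internal or flank. Exons and UTRs were not used here. The promoter table was matched by symbol for 6 of the 9 genes and not for Itga6, Itgb4 and Lama3. Regions were named by rule: gene ends, the best mean rank and the smallest p in each direction per gene, and regions ranked in 1 genotype only. The members and lists were chosen with earlier results of these data known.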

Additional observations from a re-analysis of the deposited data

How the results depend on the processing

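No member gene end was called under any alternative, and of the member regions only the internal Dst region named above was, without KO replicate 3. Counts over all features moved with the setting. Called regions numbered 12 higher and 9 lower in KO in the analysis reported, 0 and 0 after adjusting for the gene-end share, 0 and 0 with an interval required in all 6 lists, 37 and 207 with an overlap of 50%, 31 and 21 when ranked by p, and 2 and 2 with a list of 50000. With the replicate block they numbered 16 and 16. Called gene ends numbered 3 higher and 8 lower in the analysis reported, 0 and 0 with the covariate, 1 and 1 with all 6 lists, 1 and 5 with a list of 50000, 6 higher when ranked by p and 3 lower with fixed windows around summits. With the block they were 3 and 6, and the block called no member. Without 1 library, called regions ranged from 1 to 837 higher and 1 to 1579 lower, gene ends from 0 to 706 higher and 1 to 118 lower, and member regions from 0 to 1 higher. The highest counts came without KO replicate 3, and without WT replicate 2 the gene ends called were 213 and 107. The KO minus WT difference in ranked intervals, 9.67, was 6.33 to 12.8 without 1 library and 41.0 in the whole lists. The last value rests on KO replicate 1, whose list is the longest and held 358. KO replicates 2 and 3 held 223 and 251, and the WT libraries 225, 241 and 243.

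Of 45 gains, 30 kept their sign in every alternative run. The 45 hold each of the 8 tested member ends in 2 forms, as a gene end and as a region with the same gain, so they are not 45 separate results. The covariate reversed the ends of Itgb1 (0.40), Bcam (−0.067) and Pdk1 near Itga6 (−0.028), the inner starts of Dst (−0.34 and 0.16), the Dst flank in Bend6 (0.50), the internal Lama3 region at 12474131 (0.11) and the internal Itgb4 region at 115999624 (0.025). Ranking by p reversed the Itgb1 end (0.10), its internal region at 128704439 (−0.20) and the Lamb3 flank at 193363709 (0.18), which linear ranks also reversed (1786 ranks). The 50% overlap reversed the Lamb3 start (−0.72). Without 1 library, signs turned within ranges of −0.29 to 0.15 at the Itgb1 end, −0.26 to 0.48 at the Pdk2 end near Itga3, −0.12 to 0.56 at the Pdk1 end, −0.086 to 0.41 at 128704439, −0.57 to 0.56 at 193363709, −1.21 to 0.20 at the Dst flank, −0.52 to 0.051 at the second inner Dst start and −0.073 to 1.16 at the Bcam flank. The cause was not tested. A −log10 q of at least 2 changed no list, because every ranked interval passed it. The coverage limits weak intervals, so a region without an interval is not shown to be closed.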
